A study of Mus musculus with 4 samples.

Results

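Genes of fatty acid synthesis, storage and oxidation were followed in single-cell transcriptomes of mouse testis. The set was a named list of 39 genes, out of 55450 genes in the count matrices. It held 7 genes of synthesis, 8 of uptake and activation, 7 of storage and lipolysis, 4 of the carnitine shuttle, 8 of beta oxidation and 5 regulators. All 39 symbols matched exactly 1 gene each. The animals were mice labelled HFD, a high-fat diet, or ND, taken here as the normal diet, with 2 libraries of dissociated testis cells per diet. No genetic change or other treatment is given for either group, and strain, age, diet composition and feeding time are not given in the sources used here. The labels do not say whether each library came from a separate mouse, so p-values measure the spread between these libraries, which may be technical.

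Cells make fatty acids from cytosolic acetyl-CoA. Acly supplies that acetyl-CoA, Acaca and Fasn build the chain, and the Scd enzymes place a double bond in it. Acyl-CoA synthetases activate fatty acids, Dgat enzymes store them as triglyceride in droplets coated by perilipins, and the carnitine shuttle carries them into mitochondria for beta oxidation. In the testis, Leydig cells draw on lipid for steroid hormone synthesis, and Sertoli cells take up lipid from residual bodies of spermatids.

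The 4 libraries held 13561 to 15290 cell barcodes and 143748262 to 154221188 UMIs, and 13094 to 14429 cells per library were kept. Any pair of libraries shared 42 to 65 barcodes. Clustering, done without the lipid genes, gave 10 classes called by the likeness of their markers. Clusters left unnamed, most but not all of low depth, held 36.6% to 43.4% of the cells and 12.9% to 15.7% of the UMIs. By diet they held 43.4% and 39.4% of the cells in HFD against 37.2% and 36.6% in ND. The median mitochondrial share per cell was 0.386% and 0.427% in HFD against 0.353% and 0.351% in ND. The part of these differences in the diet changes was not tested. Markers of germ cells were abundant throughout, with Prm2, a protamine of elongating spermatids, at 7139 to 8724 in 1000000 UMIs (CPM) over all cells. The 7 pachytene markers summed to 4642 to 4758 CPM in early spermatocyte-like cells, above the early spermatocyte markers there (2455 to 2691). That sum was also above the 3150 to 3216 of pachytene-like and later spermatocytes, so these names do not settle the stage. Leydig-like cells, 1171 of which formed a cluster led by Insl3 and 162 a second cluster of lower depth, numbered 243 and 274 in HFD 1 and HFD 2, and 406 and 410 in ND 1 and ND 2. Their share of all UMIs was 1.12% and 1.13% in the HFD libraries against 1.69% and 1.68% in the ND libraries.

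Leydig-like cells had the highest mean level for 21 of the 39 lipid genes. Here a level is UMIs of a gene in 1000000 UMIs of a class, as mean ± SD over the 4 libraries of both diets, and it is compared between classes for 1 gene at a time, because these counts from transcript ends are not scaled to gene length. For 16 of those 21 genes every Leydig library lay above every library of the next class. Spermatogonia-like cells were highest for 5 genes, pachytene-like and later spermatocytes for 5, macrophage-like cells for 4, and early spermatocyte-like, round spermatid-like, elongating spermatid-like and fibroblast-like cells for 1 each. Neither Sertoli-like nor lymphocyte-like cells led for any of the 39. Since the classes were made from the same cells, these orders are a description without a test.

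Among the synthesis genes, the desaturase Scd2 reached 808 ± 132 in Leydig-like cells, which was 14.7 times the 54.8 ± 21.1 of fibroblast-like cells, the next class. Its neighbour Scd1 reached 163 ± 23.7, and 91.6% of all its UMIs came from Leydig-like cells on average over the libraries. Acly, which makes cytosolic acetyl-CoA, stood at 230 ± 26.6 in Leydig-like cells and 117 ± 28.0 in spermatogonia-like cells. The carboxylase Acaca and the synthase Fasn were instead highest in spermatogonia-like cells, at 52.3 ± 5.53 and 112 ± 28.9, followed by Leydig-like cells at 20.1 ± 2.69 and 53.2 ± 10.5. Srebf1, the transcription factor of the pathway, did not separate these classes (28.3 ± 9.39 against 27.2 ± 3.29). Acacb, the second carboxylase, was sparse everywhere and had 58 UMIs over all Leydig-like cells.

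Uptake and activation were spread over several classes. The fatty acid transporter Cd36 stood at 379 ± 39.5 in Leydig-like cells and 41.7 ± 23.2 in macrophage-like cells, the next class. Angptl4, an inhibitor of lipoprotein lipase, was highest in Leydig-like cells at 89.8 ± 23.7. Lpl, the lipase itself, was highest in macrophage-like cells at 163 ± 58.4. The acyl-CoA synthetases differed by class. Acsl1 led in elongating spermatid-like cells at 415 ± 15, ahead of Sertoli-like cells at 290 ± 8.08. In the latter the elongating spermatid markers summed to 72771 to 88289 CPM, against 151481 to 161332 in elongating spermatid-like cells, and their part in the Sertoli level was not tested. Acsl3 led in spermatogonia-like cells at 111 ± 21.0, and Acsl6 in pachytene-like and later spermatocytes at 67.4 ± 2.54. Acsl4 led in Leydig-like cells at 26.6 ± 10.7, where its libraries overlapped those of Sertoli-like cells at 14.0 ± 3.50. The acyl-CoA thioesterase Acot7 was lowest in Leydig-like cells at 153 and reached 658 ± 13.7 in pachytene-like and later spermatocytes.

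Germ-cell classes were highest for 4 of the 7 storage genes. Dgat1 and Dgat2, both of which make triglyceride, had different peaks. Dgat1 was highest in pachytene-like and later spermatocytes at 134 ± 3.84, and Dgat2 in round spermatid-like cells at 219 ± 5.10. The triglyceride lipase Pnpla2 reached 376 ± 8.09 in pachytene-like and later spermatocytes, and the monoglyceride lipase Mgll 350 ± 22.9 in early spermatocyte-like cells. Of the perilipins, Plin2 was highest in macrophage-like cells at 120 ± 11.1, ahead of round spermatid-like cells at 88.8 ± 5.88. Plin3 was highest in Leydig-like cells at 89.6 ± 10.8. Plin4 was highest in fibroblast-like cells from only 3 UMIs in that class.

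The oxidation genes shared a peak in Leydig-like cells. All 8 beta oxidation genes and 3 of the 4 carnitine shuttle genes had their highest mean there. The dehydrogenases Acadl, Acadm, Acads and Hadh stood at 354 ± 22.2, 288 ± 7.78, 100 ± 10.4 and 388 ± 15, and between 59.1% and 73.8% of all their UMIs came from these cells. Acadvl reached 134 ± 6.06. Hadha at 239 ± 25.8 and Hadhb at 203 ± 9.35, the subunits of the trifunctional protein, overlapped with spermatocyte classes. Ehhadh, the peroxisomal enzyme, had 50 UMIs in Leydig-like cells. Cpt1a, the rate-limiting acyltransferase, stood at 97.9 ± 21.6, Cpt2 at 94.8 ± 2.88 and the carrier Slc25a20 at 61.6 ± 12.4. Cpt1b, the muscle-type enzyme, was found with 0 UMIs in Leydig-like cells and 136 in pachytene-like and later spermatocytes. The single macrophage UMI that makes its mean nominally highest there carries no order.

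Of the regulators, Ppara, a nuclear receptor that drives oxidation genes, was highest in Leydig-like cells at 24.2 ± 4.07, and so was Pdk4, a kinase that restrains glucose oxidation, at 13.6 ± 3.02. Ppard was highest in spermatogonia-like cells from 21 UMIs and Pparg in macrophage-like cells from 5 UMIs. The coactivator Ppargc1a stood at 7.14 ± 0.618 in pachytene-like and later spermatocytes and 7.0 ± 2.51 in fibroblast-like cells, from 5 UMIs in the latter.

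**Figure D1:**
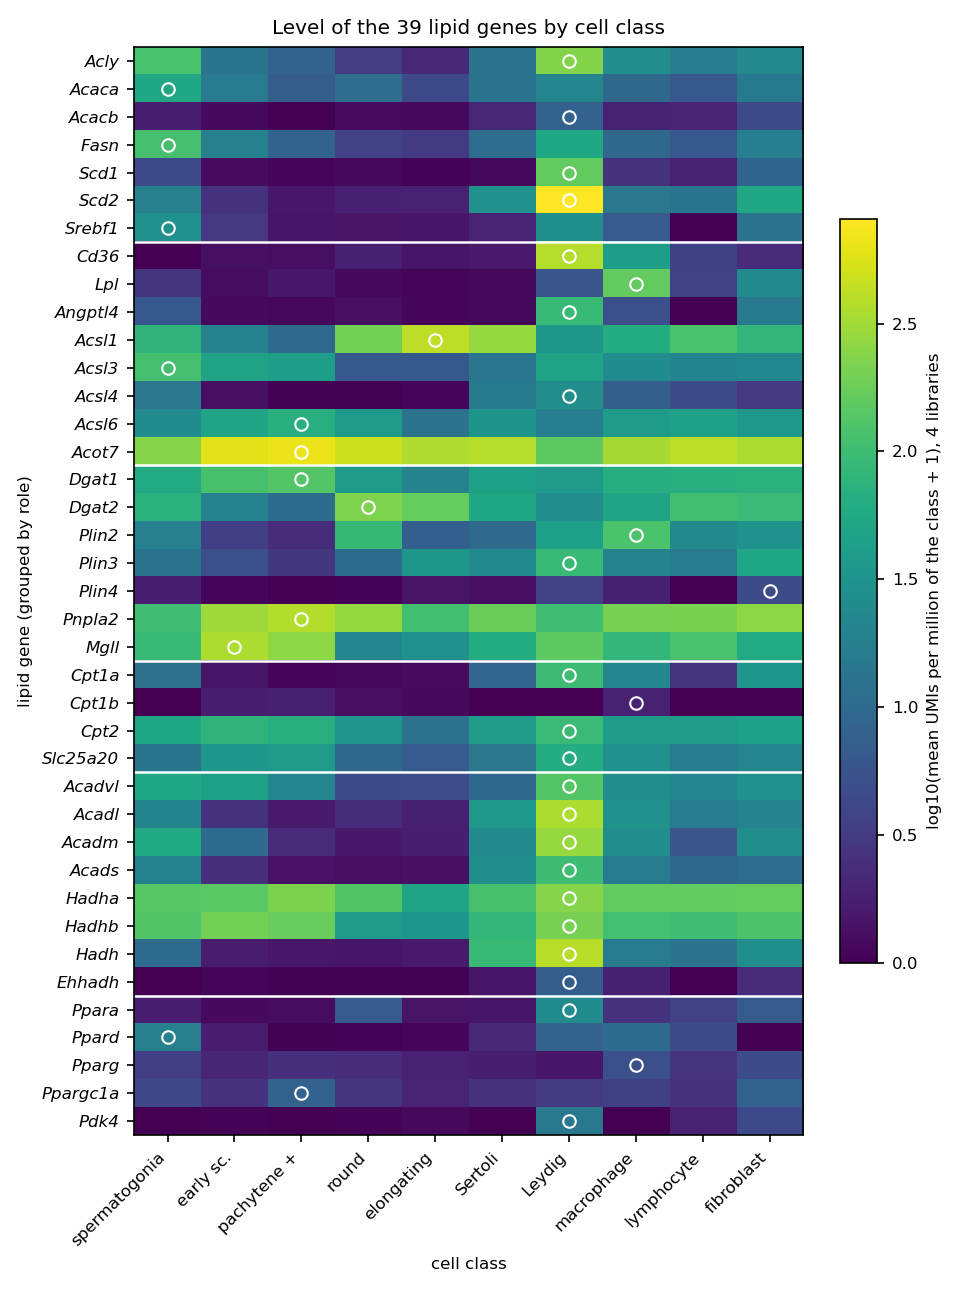
Mean level of each of the 39 lipid genes (rows, separated by role) in the 10 cell classes (columns), as log10 of the level plus 1, over 4 libraries. White circles mark the class with the highest mean, which is the Leydig-like class for 21 genes.

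The main comparison asks which lipid genes differed between HFD and ND within a class. In Leydig-like cells 34 of the 39 genes passed the filter on low counts, and Lpl, Plin4, Cpt1b, Pparg and Ppargc1a did not. Of the 34, 6 were lower and 1 was higher in HFD at a Benjamini-Hochberg adjusted p under 0.05 (edgeR quasi-likelihood test on UMIs summed per library). Among all 11853 genes tested in these cells 4.71% were called, 2.46% lower and 2.24% higher. The median log2 change was -0.02 over the 34 genes and -0.01 over all genes tested. The lower genes were 3 of synthesis (Scd2, Scd1, Acly), 2 of uptake and activation (Acsl4, Cd36) and Cpt1a of the carnitine shuttle. Angptl4 was the higher gene. Values between the diets are in CPM, counts in 1000000 counts of the tested genes after TMM scaling, and every log2 change is HFD against ND.

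Acsl4, which prefers arachidonic acid as a substrate, had 13.4 and 23.0 CPM in HFD 1 and HFD 2 against 38.7 and 33.5 in ND 1 and ND 2. The mean ± SD over 2 libraries was 18.2 ± 6.74 for HFD and 36.1 ± 3.66 for ND, with a log2 change of -1.0 (SE 0.23, edgeR adjusted p 0.00448). Both HFD libraries lay below both ND libraries, and HFD 1 was the lowest. Cpt1a, which makes the acylcarnitines that enter mitochondria, had 75.1 and 84.0 CPM in HFD against 118 and 121 in ND. Its mean fell from 119 ± 1.48 to 79.6 ± 6.27, a log2 change of -0.59 (SE 0.12, edgeR adjusted p 0.00148). The diets did not overlap.

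Scd2 had 660 and 734 CPM in HFD against 965 and 924 in ND, with means of 697 ± 52.8 and 945 ± 28.5 (log2 change -0.44, SE 0.08, edgeR adjusted p 0.000223). Scd1 had 140 and 145 CPM in HFD against 193 and 184 in ND, with means of 143 ± 3.22 and 188 ± 5.76 (log2 change -0.40, SE 0.10, edgeR adjusted p 0.0116). In both desaturases all HFD values were below all ND values. Acly had 203 and 212 CPM in HFD against 269 and 250 in ND (means 208 ± 6.07 and 259 ± 13.0), a log2 change of -0.32 (SE 0.09, edgeR adjusted p 0.0302). The remaining synthesis genes did not pass the test. Fasn had 37.3 and 58.4 CPM in HFD against 61.1 and 59.4 in ND, so the low value of HFD 1 makes most of its log2 change of -0.34 (edgeR adjusted p 0.268). Acacb had a log2 change of -1.05 (SE 0.42, adjusted p 0.158), and Acaca and Srebf1 had 0.17 and 0.09, with overlapping libraries in both.

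Cd36 had 329 and 365 CPM in HFD against 425 and 420 in ND (means 347 ± 26.1 and 422 ± 3.67), and its log2 change was -0.28 (SE 0.08, edgeR adjusted p 0.0374). Angptl4 went the other way and had 111 and 110 CPM in HFD against 74.1 and 68.4 in ND (means 110 ± 1.11 and 71.3 ± 4.04), a log2 change of 0.63 (SE 0.12, edgeR adjusted p 0.000842). The 2 HFD libraries of Angptl4 differed by less than the 2 ND libraries, and neither overlapped the other diet. Acot7 and Plin2 did not pass the adjusted test, with log2 changes of 0.30 (adjusted p 0.0985) and 0.41 (adjusted p 0.18). Both HFD libraries lay above both ND libraries for these genes. With 2 libraries per diet such a separation alone shows little, and its share over all genes is not given here.

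**Figure D2:**
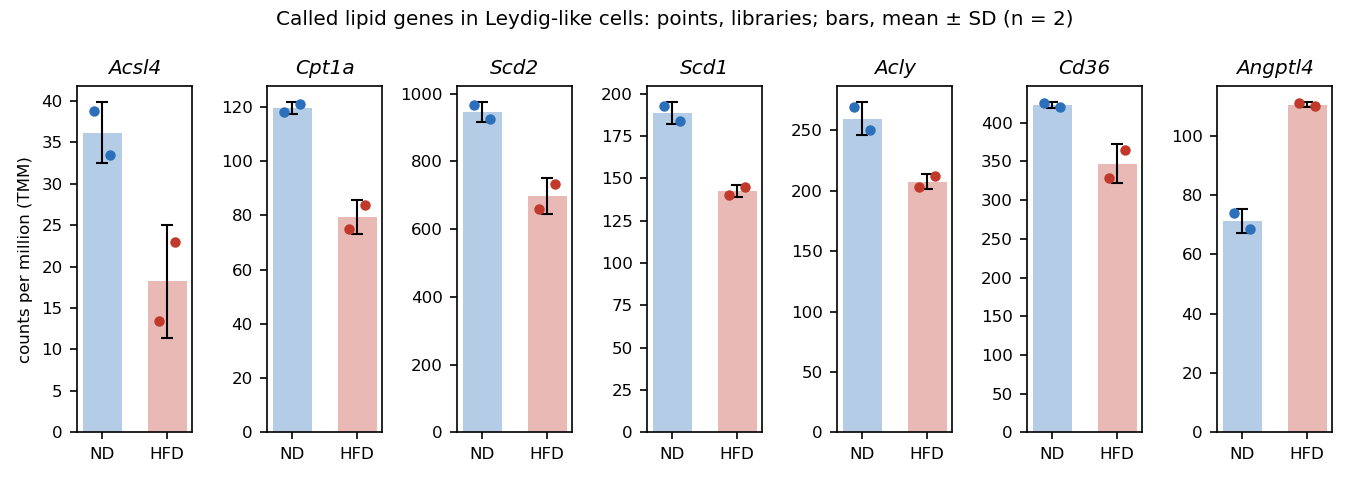
CPM (vertical axes, each from 0) of the 7 called lipid genes in Leydig-like cells, with points for libraries and bars for mean ± SD of 2 libraries per diet. In each panel the HFD points lie clear of the ND points, below them for 6 genes and above them for Angptl4.

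None of the 8 beta oxidation genes was called in Leydig-like cells, 1 had an unadjusted p under 0.05 (Hadha, log2 change 0.23, edgeR adjusted p 0.149), and DESeq2 called 0. Of all 11853 genes tested in these cells, 2069 had an unadjusted p under 0.05. The changes of Acadl, Acadm, Acads and Hadh were 0.09 (SE 0.08), -0.00 (SE 0.09), 0.06 (SE 0.12) and -0.01 (SE 0.08). Acadm, for example, had 283 and 302 CPM in HFD against 299 and 286 in ND. Hadh had 407 and 378 against 401 and 387. The 2 diets overlapped for both genes. Acadvl at -0.09 and Hadhb at -0.06 were similar in size, and Ehhadh at -0.75 had an SE of 0.45. Cpt2 had a log2 change of 0.02 (SE 0.12), and Slc25a20 one of 0.42 (adjusted p 0.0965). The regulators Ppara, Ppard and Pdk4 were not called, with 0 unadjusted p under 0.05 and 0 calls by DESeq2.

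Other measures moved with the diets in the same cells. The summed level of the 7 Leydig markers was 15558 and 15525 CPM in HFD against 20275 and 16870 in ND. Of these, 3 were lower in HFD, led by Star, the cholesterol carrier of steroid synthesis, with a log2 change of -0.77, while Lhcgr had one of -0.04 and was not called. The 7 markers of pachytene-like and later spermatocytes summed to 859 and 807 in HFD against 591 and 629 in ND, and 3 were called higher. The 6 fibroblast markers summed to 91.5 and 107 CPM in HFD against 129 and 153 in ND, with Dcn called lower, and the Sertoli marker Cst9 was called higher. Markers of elongating spermatids summed to 4608 to 6804 CPM in Leydig-like cells, values far above 0 for genes of another cell type. The part of these shifts in the lipid changes was not tested. The 5 adipocyte markers summed to 35.0 and 28.6 CPM in HFD against 27.0 and 25.8 in ND in Leydig-like cells. Most of that sum was Plin1, a droplet coat protein, whose UMIs numbered 49 and 41 for HFD and 48 and 45 for ND (log2 change 0.41, edgeR adjusted p 0.332). Cidec had 0 UMIs in every library, Lep 0 or 1, Adipoq 2 to 12 and Retn 1 to 4.

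The calls in Leydig-like cells differ in how firmly they stand. The cluster of 1171 cells alone, an alternative added after the data were seen, kept 6 of the 7, with Cd36 at an adjusted p of 0.0534. In that setting 503 of all 11626 genes were called. These cells are most of the class, so this alternative is not an independent check. At Leiden resolution 2 the class held 325 and 283 cells in HFD 1 and HFD 2 and 408 and 451 in ND 1 and ND 2. Its cluster of lower depth then held 296 cells, beside 1171 in the other. These 296 were uneven over the libraries, with 116 and 45 in HFD 1 and HFD 2 and 45 and 90 in ND 1 and ND 2. In this setting 0 of the 7 were called. Their log2 changes there were -1.15 for Acsl4, -0.74 for Cpt1a, -0.58 for Scd2, -0.56 for Scd1, -0.47 for Acly, -0.42 for Cd36 and 0.51 for Angptl4, with adjusted p from 0.0607 to 0.205. DESeq2 called 2 of the 39, Scd2 and Angptl4. The same 2 were called without HFD 1, and without ND 1 those 2 with Acsl4 and Cpt1a. Scd2 and Angptl4 each lost their call in 1 of 14 alternatives and Cd36 in 9 of 14. Cd36 was also lost with equal cluster makeup, with the lipid genes allowed in the clustering, with the replicate block and without ND 2.

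The wider lipid list of 91 genes had 72 tested in Leydig-like cells, of which 3 were lower and 2 higher in HFD (6.94%, beside the 4.71% of all genes). Insig1, which holds the sterol sensor back in the endoplasmic reticulum, had 39.1 and 34.8 CPM in HFD against 94.2 and 90.6 in ND. Its log2 change was -1.32 (SE 0.15, edgeR adjusted p 2.25e-08), and the libraries of the diets were far apart. Scap, that sensor, which escorts the SREBP factors, changed by -0.41 (SE 0.12, edgeR adjusted p 0.0368). Agpat2, an enzyme of glycerolipid synthesis, was higher by 0.49 (SE 0.14, adjusted p 0.0396). The Scap call was lost in 8 of 14 alternatives and the Agpat2 call in 8 of 13, in both cases also in the larger cluster alone and without HFD 1, ND 1 or ND 2, and Agpat2 without HFD 2 too. Insig1 kept its call in all 14.

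The genes called in Leydig-like cells are on several chromosomes (GENCODE M21, GRCm38). Scd2 (chr19:44293674-44306864, forward strand) and Scd1 (chr19:44394455-44407879, reverse strand) lie close together on chromosome 19, and Cpt1a (chr19:3322334-3385733, forward) is on the same chromosome. Acly is at chr11:100476353-100528000 (reverse), Acsl4 at chrX:142317993-142390535 (reverse), Cd36 at chr5:17781690-17888801 (reverse) and Angptl4 at chr17:33773750-33781830 (reverse). Promoter sequences were taken from RefSeq (GRCm38.p6), as the 250 bases before each start that its promoter table gives for a gene, and 32 of the 39 genes had an entry. They are shown for 3 of the genes that were lower together in Leydig-like cells. Scd1, Scd2, Lpl, Angptl4, Dgat1, Dgat2 and Cpt1b had none. The Acly window is chr11:100528001-100528250 (reverse strand), the Cpt1a window chr19:3323051-3323300 (forward) and the Acsl4 window chrX:142390536-142390785 (reverse). The Cpt1a window lies inside the gene as GENCODE M21 spans it, because the RefSeq start used is downstream of the first GENCODE start, and its last 16 bases lie in an exon of a GENCODE transcript. The Cd36 window, searched but not printed, also lies inside the GENCODE span. Capitals mark matches on either strand to the NF-Y box CCAAT, the nuclear receptor half-site AGGTCA and the GC box GGGCGG.
Acly: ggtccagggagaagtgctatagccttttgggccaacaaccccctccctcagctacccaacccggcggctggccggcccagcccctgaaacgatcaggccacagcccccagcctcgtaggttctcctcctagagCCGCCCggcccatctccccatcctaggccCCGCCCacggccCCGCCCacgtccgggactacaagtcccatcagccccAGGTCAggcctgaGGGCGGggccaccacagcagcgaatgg
Cpt1a: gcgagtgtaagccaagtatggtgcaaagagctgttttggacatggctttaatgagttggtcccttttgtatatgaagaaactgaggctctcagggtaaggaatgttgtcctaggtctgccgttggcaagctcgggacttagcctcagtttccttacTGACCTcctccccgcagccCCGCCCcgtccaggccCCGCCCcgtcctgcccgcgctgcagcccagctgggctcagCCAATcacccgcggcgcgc
Acsl4: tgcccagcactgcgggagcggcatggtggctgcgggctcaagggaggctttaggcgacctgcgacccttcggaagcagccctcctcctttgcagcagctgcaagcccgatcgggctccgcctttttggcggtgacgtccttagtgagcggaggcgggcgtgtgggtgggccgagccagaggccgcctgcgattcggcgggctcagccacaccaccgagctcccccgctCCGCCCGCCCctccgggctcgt

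The Acly window held 1 half-site and 4 GC boxes, and the Cpt1a window 1 NF-Y box, 1 half-site and 2 GC boxes. The Acsl4 window held 2 overlapping GC boxes. Of all 32851 promoter windows of this length, 33.8% held CCAAT, 14.0% AGGTCA and 32.7% GGGCGG. Among the 32 lipid genes with an entry, 16, 8 and 23 genes had a match in any of their windows. A gene can have several windows, so these counts of genes are not on the same scale as the shares of windows. All 3 motifs together were found in 1.00% of windows and in 4 of the 32 genes, which were Acsl6, Cd36, Cpt1a and Pparg. The sterol regulatory element, searched as TCACNCCAC on both strands, was in 1.05% of windows and in those of Acsl1 and Ehhadh among the 32. A match is a run of letters, not a shown binding site.

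Outside Leydig-like cells few lipid genes were called. In elongating spermatid-like cells 24 of the 39 genes were tested and 3 called, beside 8.10% of all 15278 genes. Dgat2, the triglyceride synthase that is abundant in spermatids, had 159 and 148 CPM in HFD against 179 and 172 in ND, a log2 change of -0.19 (SE 0.05, edgeR adjusted p 0.0111). Acsl1 had 404 and 387 CPM in HFD against 433 and 440 in ND, a change of -0.14 (SE 0.04, adjusted p 0.0237). Mgll had 29.5 and 33.0 CPM in HFD against 25.3 and 25.5 in ND, a change of 0.30 (SE 0.08, adjusted p 0.0196). The diets did not overlap for any of the 3, and the changes of Dgat2 and Acsl1 were small in size. Markers of other stages moved in the same cells. Of 7 pachytene markers 3 were higher in HFD, with sums of 605 and 634 CPM against 512 and 536, and 4 of 7 elongating spermatid markers were lower. Of 7 early spermatocyte markers 2 were higher (218 and 235 CPM against 192 and 199), and of 7 round spermatid markers 2 were lower (2540 and 2531 against 2676 and 2609). Dgat2 is most abundant in round spermatid-like cells. Mgll itself is most abundant in early spermatocyte-like cells, and the part of these shifts in the changes was not tested. The 3 calls were absent without HFD 1 and likewise without HFD 2. Dgat2 was also lost with equal cluster makeup and with doublets kept, Acsl1 with doublets kept and Mgll with DESeq2.

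In early spermatocyte-like cells 26 of the 39 genes were tested and 2 called, beside 2.77% of all 15385 genes. Pachytene markers summed above early spermatocyte markers in this class, so its stage is uncertain. Mgll rose, with 382 and 364 CPM in HFD against 336 and 322 in ND (log2 change 0.18, SE 0.04, edgeR adjusted p 0.0265). Acsl1 fell, with 15.8 and 15.3 CPM in HFD against 18.6 and 23.4 in ND (log2 change -0.44, SE 0.11, adjusted p 0.0357). Acsl1 is far more abundant in elongating spermatid-like cells, and 3 of 7 elongating and 3 of 7 round spermatid markers were also lower in this class. Round spermatid markers summed to 143 and 147 CPM in HFD against 170 and 197 in ND, and their part in the Acsl1 change was not tested. Of 7 pachytene markers 2 were higher (Pou5f2 and Ccna1). Their sums, 4642 and 4758 CPM in HFD against 4706 and 4642 in ND, overlapped between the diets. On average 51.0% of Mgll UMIs came from pachytene-like and later spermatocytes, which held 29.3% of all UMIs. Early spermatocyte-like cells gave 25.2% of Mgll UMIs and held 10.6% of all UMIs. The part of the pachytene markers in the Mgll change was not tested either. Neither call was made by DESeq2, with doublets kept, at Leiden resolution 2 or with equal cluster makeup. Acsl1 was also lost without HFD 2 or ND 2, and Mgll without HFD 1.

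Lpl, which releases fatty acids from lipoproteins, was the 1 gene called of 15 tested in macrophage-like cells, where 2.15% of all 5714 genes were called. It had 112 and 144 CPM in HFD against 263 and 216 in ND (means 128 ± 22.7 and 239 ± 32.8), a log2 change of -0.90 (SE 0.24, edgeR adjusted p 0.0362). These values rest on few molecules, since HFD 1 and HFD 2 held 30 and 38 UMIs, and ND 1 and ND 2 held 69 and 61. In ND 2, 1 cell held 18 of the 61 UMIs, while in HFD 20 of 82 and 25 of 83 cells had at least 1. In ND 36 of 105 and 31 of 105 cells had at least 1. The 8 macrophage markers summed to 9700 and 9993 CPM in HFD against 13454 and 13221 in ND, and 4 of them (C1qa, C1qb, C1qc, Lyz2) were lower. Leydig markers in these cells summed to 333 and 131 in HFD against 67.0 and 53.0 in ND, and the part of either shift was not tested. The Lpl call was lost with DESeq2, with no filter on low counts, with doublets kept, with the replicate block, and without HFD 1 or ND 1.

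No lipid gene was called in the other 5 classes by edgeR, and DESeq2 also called 0 there. In pachytene-like and later spermatocytes 30 genes were tested and 6 had an unadjusted p under 0.05, beside 3083 of all 17187 genes. By adjusted p 1.89% of all genes were called. In this class Acadm, of medium-chain oxidation, had the most negative change (-0.72, edgeR adjusted p 0.102). On average 62.9% of Acadm UMIs came from Leydig-like cells and 5.35% from this class. Leydig markers in this class summed to 9.97 and 9.98 CPM in HFD against 12.5 and 15.1 in ND, with 1 called lower. Of 7 round spermatid markers 2 were also lower, and the part of these shifts was not tested. In round spermatid-like cells 31 were tested and 4 had an unadjusted p under 0.05, beside 3119 of all 19302 genes. By adjusted p 1.14% of all genes were called. Of the 4 lipid genes, Mgll had a change of 0.24 (adjusted p 0.0713) and Plin2 -0.16 (adjusted p 0.0958). In Sertoli-like cells 25 were tested and 2 had an unadjusted p under 0.05, beside 660 of all 10144 genes. By adjusted p 0% of all genes were called. In fibroblast-like cells 11 were tested, with 1 unadjusted p under 0.05, beside 276 of all 4347 genes. In lymphocyte-like cells 10 were tested, with 0, beside 117 of all 5302 genes. By adjusted p 0% of all genes were called in both. Of the lipid genes tested in the 9 classes, Cd36 in macrophage-like cells had the most positive log2 change (1.24), from 50 UMIs in all, with an adjusted p of 0.221.

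**Figure D3:**
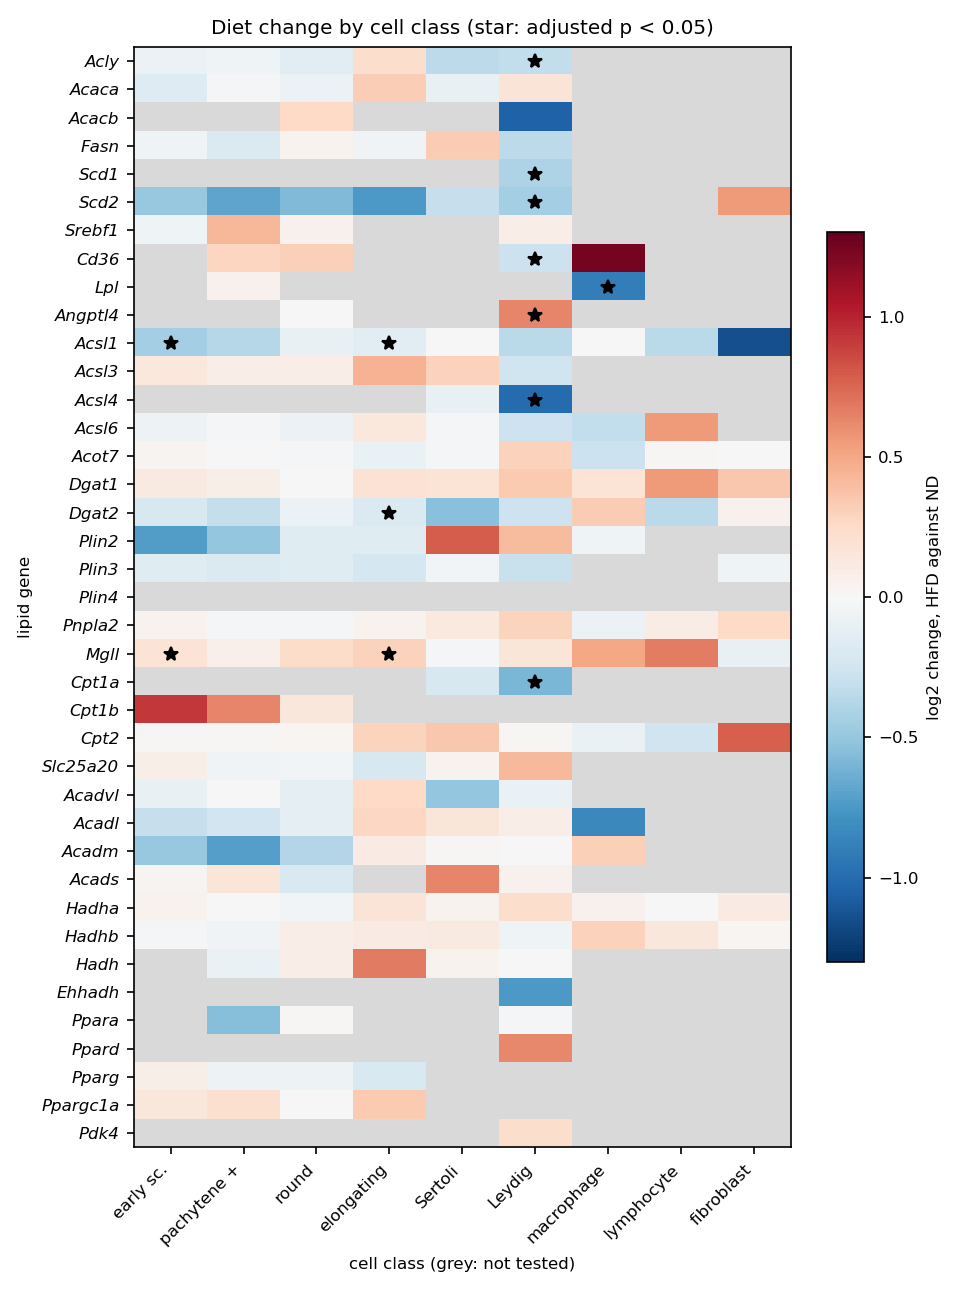
Log2 change (HFD against ND) of the 39 lipid genes (rows) in the 9 classes tested (columns), with grey for genes under the count filter and stars for adjusted p under 0.05 (edgeR). Leydig-like cells have 7 stars, elongating spermatid-like cells 3, early spermatocyte-like cells 2, and 1 star marks Lpl in macrophage-like cells.

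Whether a change differed between 2 classes was tested as an interaction in edgeR, with the library as a term, for 36 pairs of classes. The genes called in 1 class of a pair gave 102 such tests, and 0 passed, with a smallest adjusted p of 0.091. A different change in Leydig-like cells than in another class was thus not shown for Acsl4, Cpt1a, Scd1, Scd2, Acly, Cd36 or Angptl4. Over all 1075 tests of lipid genes 4 passed (0.372%, beside 0.609% of all tests over the 36 pairs). Each set a class against round spermatid-like cells, where 1.59% (Leydig-like), 3.84% (early spermatocyte-like) and 3.81% (elongating spermatid-like) of all genes passed. Plin2, the droplet coat protein, differed by 0.61 (SE 0.17, adjusted p 0.0332) between Leydig-like cells (0.41) and round spermatid-like cells (-0.16). Acot7 differed by 0.37 (SE 0.11, adjusted p 0.0405) for Leydig-like cells and by 0.11 (SE 0.03, adjusted p 0.0387) for early spermatocyte-like cells. Hadha differed by 0.23 (SE 0.06, adjusted p 0.00651) for elongating spermatid-like cells (0.17, against -0.04). None of these genes was called within either class.

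Over the whole testis, where all kept cells of a library were summed, every 1 of the 39 genes passed the filter and 23 were called, 15 lower and 8 higher in HFD. The background was high, since 34.4% of all 25461 genes were called, 19.0% lower and 15.4% higher. The median log2 change of the 39 genes was -0.20, against -0.02 over all genes. In such sums fewer cells of a type and less RNA per cell cannot be told apart. By role, 4 of 7 synthesis genes were lower, 3 of 8 uptake and activation genes lower and 1 higher, 3 of 7 storage genes lower and 2 higher. In the carnitine shuttle 1 of 4 genes was lower and 3 higher, in beta oxidation 3 of 8 lower and 1 higher, and among the regulators 1 of 5 lower and 1 higher.

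The 6 most negative changes among the called genes were those of Acsl4, Cpt1a, Scd2, Scd1, Acacb and Cd36, all highest in Leydig-like cells. Acsl4 had 0.445 and 0.483 CPM in HFD against 0.965 and 0.950 in ND (log2 change -1.04, SE 0.16, edgeR adjusted p 0.000161). Cpt1a had 1.24 and 1.28 against 2.46 and 2.52 (-0.98, SE 0.11, adjusted p 2.17e-05). Scd2 had 8.78 and 9.54 against 17.1 and 17.0 (-0.90, SE 0.06, adjusted p 1.57e-07). In all 3 genes the spread within a diet was far under the gap between the diets. Scd1 had 1.77 and 1.82 CPM in HFD against 3.29 and 3.29 in ND (-0.87, SE 0.10), and Cd36 4.54 and 4.79 against 7.49 and 7.48 (-0.68, SE 0.07). Acacb changed by -0.74 (SE 0.26) from 140 UMIs in all, a call lost in 6 of 12 alternatives, among them those without HFD 1, HFD 2 or ND 1. For Scd1 and Cd36, 82.5% to 94.7% of the UMIs of a library came from Leydig-like cells, whose own share of UMIs was lower in HFD.

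The other called genes in the whole testis had smaller changes. Ehhadh, which was not called, had a log2 change of -0.96 (edgeR adjusted p 0.0613). Plin2 had 28.2 and 24.8 CPM in HFD against 35.4 and 36.9 in ND (-0.45, SE 0.06), and Plin3 9.65 and 8.94 against 12.1 and 12.4 (-0.40, SE 0.06). On average 87.3% of Plin2 UMIs came from round spermatid-like cells, whose share of all UMIs was 27.1% and 26.6% in HFD against 34.4% and 34.8% in ND, and 7 of 7 round spermatid markers were lower. Acadm had 5.35 and 5.49 against 7.36 and 7.36 (-0.44, SE 0.07), and Hadh 6.69 and 5.95 against 8.44 and 8.17 (-0.39, SE 0.07). These droplet and oxidation genes were lower in both HFD libraries. Ppargc1a had 4.37 and 4.40 CPM in HFD against 3.28 and 3.40 in ND (0.39, SE 0.08), and Cpt1b 0.682 and 0.732 against 0.558 and 0.456 (0.48, SE 0.17). The Cpt1b call was lost in 7 of 13 alternatives, among them DESeq2, doublets kept and those without HFD 1, HFD 2 or ND 2. Cpt1b and Ppargc1a had more UMIs in pachytene-like and later spermatocytes than in any other named class, and that class was larger in HFD (1430 and 1762 cells against 1200 and 1244). Dgat2 (-0.36), Acadl (-0.33), Ppara (-0.32), Acly (-0.29) and Acsl1 (-0.29) were also lower, and Mgll (0.34), Acsl3 (0.31), Dgat1 (0.26), Slc25a20 (0.15), Hadhb (0.14) and Cpt2 (0.12) higher. Among these, Ppara, Hadhb and Cpt2 lost their call without HFD 1, HFD 2 or ND 1, Ppara also with DESeq2, and Slc25a20 without HFD 2 or ND 2.

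When every cluster was given the same weight in each library (equal cluster makeup), 2 of the 39 genes were called, beside 1.17% of all 24693 genes. Scd2 was lower by a log2 change of -0.34 (SE 0.05, edgeR adjusted p 0.00775), and Angptl4 was higher by 0.62 (SE 0.11, adjusted p 0.0252) although it had not been called in the plain sums (0.11). In those sums Leydig-like cells gave 85.6% to 91.3% of Scd2 UMIs and 76.3% to 83.2% of Angptl4 UMIs. Both calls thus rest mostly on the same molecules as the calls in Leydig-like cells. All 23 genes called in the plain sums were smaller in size with equal makeup, and 18 kept their direction. Slc25a20, Acadl, Hadhb, Hadh and Ppara turned, with changes of -0.03, 0.14, -0.03, 0.10 and 0.03. Cpt1a at -0.50 (adjusted p 0.0517) and Acsl4 at -0.60 (adjusted p 0.101) kept the largest negative values among the 23. The median over the 39 genes was -0.03.

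**Figure D4:**
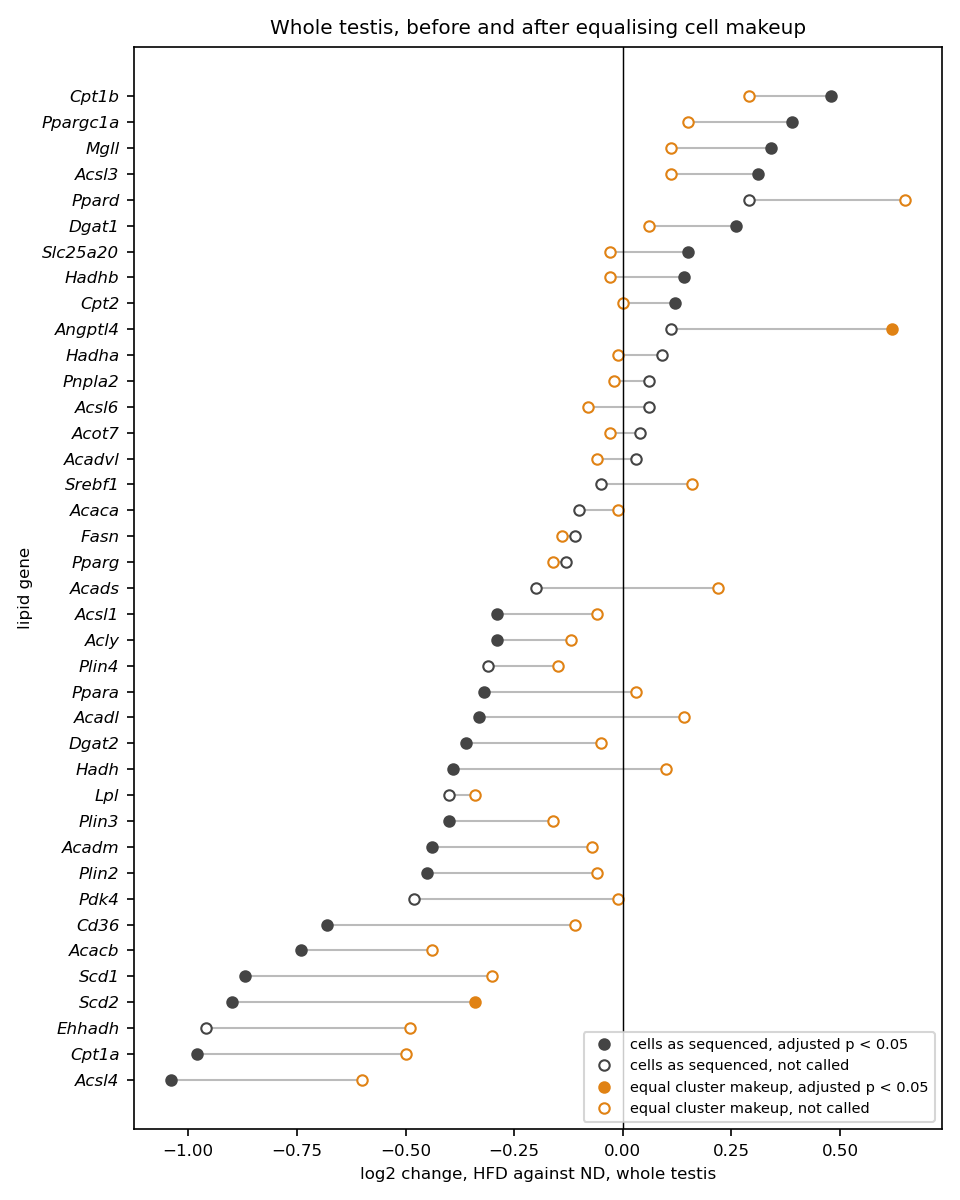
Log2 change (HFD against ND) of each of the 39 lipid genes over the whole testis, with the cells as sequenced (grey) and with equal cluster makeup (orange). Filled points have an adjusted p under 0.05, 23 before and 2 after, and all 23 called points move towards 0.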

How the data were processed

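Single-cell libraries (10x Chromium 3' chemistry, per the labels) were made from dissociated testis, 2 per diet. The authors deposited, for each library, a matrix of raw molecule (UMI) counts of genes by cell barcodes, unnormalised. The submitters' processing notes name mm10. Deposited dense expression tables were not used, and aligner and annotation are not given in the sources used here. All gene identifiers matched GENCODE M21 (GRCm38).

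Barcodes needed 200 detected genes or more and no more than 20% of UMIs from mitochondrial genes. Scrublet (scanpy 1.11.5, expected rate 0.1) called 449, 890, 819 and 813 doublets in HFD 1, HFD 2, ND 1 and ND 2, which were left out. Cells were clustered together (2000 variable genes without the lipid genes, 30 principal components, 15 neighbours, Leiden resolution 1). Clusters were named from marker lists, by a rule set after the clusters were seen.

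UMIs were summed per library and class, where each library gave 50 cells or more of the class (spermatogonia-like cells, 46 in HFD 1, were not tested). Sums were tested with edgeR 4.0.16 (filterByExpr, TMM, quasi-likelihood test, R 4.3.3), with Benjamini-Hochberg adjustment over all genes of a compartment and a threshold of 0.05. DESeq2 1.42.0 was an alternative. In all, 13 alternatives were planned and 1 was added after the data were seen. Each SE was derived from edgeR's F statistic and the log2 change. Equal cluster makeup scales each cluster to the same weight in every library and leaves out 118 cells of clusters with fewer than 10 cells in a library. The edgeR test on sums was run on counts simulated for Leydig-like cells, macrophage-like cells and the whole testis. These counts were drawn with the dispersion that edgeR estimated. Clustering, class naming, the interaction test and equal cluster makeup were not part of that check. The members and lists were chosen with earlier results of these data known. Values per library were given for genes called, with diets apart and at least 40 UMIs, up to 12 in full per compartment and up to 3 per direction for the wider list, some of which are not reported here.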

Additional observations from a re-analysis of the deposited data

Results flagged for a closer look

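Some changes differed between cell classes by the interaction test of edgeR. For the lipid genes these were 4 of 1075 tests (0.372%), below the 0.609% over all genes, and 0 of the 102 tests on genes called in 1 class of a pair passed. Among the 39 lipid genes, Plin2 differed by 0.61 on the log2 scale between Leydig-like and round spermatid-like cells. Acot7 differed by 0.37 between Leydig-like and round spermatid-like cells and by 0.11 between early spermatocyte-like and round spermatid-like cells. Hadha differed by 0.23 between elongating and round spermatid-like cells. Plin2, Acot7 and Hadha are all abundant in germ cells, and some germ-cell markers moved with diet in Leydig-like and elongating spermatid-like cells. In the former, pachytene markers summed to 859 and 807 CPM in HFD against 591 and 629 in ND. Round spermatid markers there summed to 281 and 251 against 283 and 278. On average 87.3% of Plin2 UMIs came from round spermatid-like cells and 1.26% from pachytene-like and later spermatocytes. The part of these markers in the differences was not tested.

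In the wider list 11 of 2359 such tests passed, beside 3406 of 559132 over all genes. Only those of Insig1 and Slc27a1 are given here. The change of Insig1 in Leydig-like cells differed by -1.35 from that in pachytene-like and later spermatocytes and by -1.29 from that in round spermatid-like cells. Between elongating spermatid-like and Leydig-like cells the difference was 1.3. The 3 adjusted p were 5.48e-05, 7.17e-06 and 1.36e-11 (edgeR). Slc27a1, a fatty acid transport protein, differed by 1.02 between Leydig-like cells (0.05) and pachytene-like and later spermatocytes (-1.05), with an adjusted p of 0.0101.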

How the results depend on the processing

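In Leydig-like cells 7 lipid genes were called, and the count was 2 with DESeq2, 11 with doublets kept and 0 at Leiden resolution 2. The share of all genes called moved too, from 4.71% to 0.928%, 8.38% and 0.857%. The count ranged from 2 to 8 when 1 library was left out, with 1.76% to 4.31% of all genes called. In early spermatocyte-like cells 2 were called, and 0 with DESeq2, doublets kept, Leiden resolution 2 or equal cluster makeup. The share of all genes called there went from 2.77% to 0.474%, 1.12%, 0.783% and 2.13%. In elongating spermatid-like cells 3 were called, 1 with doublets kept, and 0 to 4 when 1 library was left out, with 8.10% of all genes called at first, 1.84% with doublets kept and 0.0816% to 8.83% when 1 library was left out. Lpl, the 1 call in macrophage-like cells, was not called with DESeq2, no filter on low counts or doublets kept. The share of all genes called in these cells went from 2.15% to 0.613%, 0.0517% and 0.814%. In pachytene-like and later spermatocytes the count rose from 0 to 1 with doublets kept and was 0 to 2 when 1 library was left out (2 without ND 1), with 7.39% of all genes called with doublets kept and 7.06% without ND 1. In round spermatid-like cells it rose from 0 to 1 with the lipid genes allowed in the clustering and was 0 to 3 when 1 library was left out (1 without HFD 1, 3 without ND 1, 2 without ND 2), where the share of all genes was 2.58% with the lipid genes allowed, 1.76% without HFD 1, 10.7% without ND 1 and 4.57% without ND 2. Over the whole testis the count was 2 instead of 23 with equal cluster makeup, where 1.17% instead of 34.4% of all genes were called. With equal cluster makeup the whole-testis changes of Slc25a20 (-0.03), Acadl (0.14), Hadhb (-0.03), Hadh (0.10) and Ppara (0.03) turned in sign, and none of them was called. The cause was not tested beyond the construction of each alternative. No lipid gene was called in Sertoli-like, fibroblast-like or lymphocyte-like cells under any alternative with all 4 libraries. Under these alternatives at most 0.114%, 0.240% and 0.226% of all genes were called in the 3 classes. A count of 0 there is therefore no result about lipid genes.

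The diets share replicate numbers in the sample titles, with no shared animal or day named. Deviations of same-numbered libraries correlated by -0.03 to 0.14 over the compartments, so the numbers were not taken as a pairing. With the replicate block, 3 lipid genes were called in pachytene-like and later spermatocytes, 1 among round spermatid-like cells and 0 among macrophage-like cells, where the shares of all genes called went from 1.89% to 5.49%, from 1.14% to 1.97% and from 2.15% to 0.805%. The count was 6 in Leydig-like cells, 3 in early spermatocyte-like cells, 4 in elongating spermatid-like cells and 25 over the whole testis, with 4.65%, 6.24%, 10.2% and 39.1% of all genes called. Depth limits macrophage-like, fibroblast-like and lymphocyte-like cells, where 24, 28 and 29 of the 39 genes were under the count filter.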

Other observations

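Decr1, an auxiliary enzyme for the oxidation of unsaturated fatty acids from the wider list, was higher in HFD in 2 germ-cell classes. In pachytene-like and later spermatocytes it had 22.8 and 22.3 CPM in HFD against 17.8 and 16.7 in ND (log2 change 0.38, SE 0.06, edgeR adjusted p 0.0101). In round spermatid-like cells it had 11.2 and 11.3 CPM against 7.33 and 8.08 (0.55, SE 0.08, adjusted p 0.0124). The call in pachytene-like and later spermatocytes was lost with no filter on low counts and without HFD 2. Over the whole testis it changed by 0.45 (SE 0.05), and it was called under all 13 alternatives there, equal cluster makeup included. Slc27a1, whose call was lost with no filter, with equal cluster makeup and without HFD 1, HFD 2 or ND 2, was lower in pachytene-like and later spermatocytes, with 0.789 and 0.925 CPM in HFD against 1.62 and 1.93 in ND (-1.05, SE 0.21, adjusted p 0.0276), from 199 UMIs in all. Slc27a1 had its highest mean level in Leydig-like cells. Leydig markers summed to 9.97 and 9.98 CPM in HFD against 12.5 and 15.1 in ND in pachytene-like and later spermatocytes. Their part in the Slc27a1 change was not tested. Gpat3, which starts glycerolipid synthesis, was lower in elongating spermatid-like cells (-0.28, SE 0.09, adjusted p 0.0454), a call that 9 of 12 alternatives lost.

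Over the whole testis 42 of the 83 wider-list genes tested were called (50.6%, beside 34.4% of all genes), 32 lower and 10 higher in HFD. Among the called genes the most negative changes included Acaa1b (-1.14), Gpam (-0.85) and Slc27a4 (-0.68), and the most positive were those of Decr1 (0.45), Hilpda (0.28) and Mlycd (0.19). With equal cluster makeup, where 1.17% of all genes were called, Acaa1b (-1.18), Gpam (-0.40), Slc27a4 (-0.34), Hilpda (0.06) and Mlycd (0.00) were not called. Acaa1b and Slc27a4 each lost their call in 6 of 12 alternatives. Both were lost without HFD 1, HFD 2 or ND 1, Acaa1b also without ND 2, and Mlycd without HFD 2.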
